A study of Mus musculus with 18 samples.

Results

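The gene expression of 2 normal reproductive organs was set side by side: 3 libraries of wild-type (WT) mouse ovary and 3 libraries of WT mouse uterus, which are 6 of the 18 libraries in the series. They were chosen by their labels for tissue and genotype, and all genes of the deposited count tables entered, so no measured value chose them. The other 12 libraries come from ovaries and uteri of mice labelled ARE+/- and ARE-/-, 3 for each genotype and organ, in a study of pituitary inflammation driven by interferon gamma. ARE is, as background, an AU-rich element that shortens the life of Ifng messenger RNA, and these libraries serve below mainly to repeat the organ comparison. All mice were of the C57B6/J strain and 20 to 25 weeks old, and total RNA of the whole organ was sequenced. The labels give neither the cycle stage nor which ovary and uterus came from the same mouse, and they mark uterus replicate 1 as a backup sample.

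The ovary matures oocytes inside follicles, whose granulosa and theca cells make steroid hormones from cholesterol under the pituitary hormones FSH and LH, and the ruptured follicle becomes the corpus luteum, the main source of progesterone. The uterus arises from the Mullerian ducts, which are patterned along their length by Hox genes, and consists of a simple epithelium with glands, a stroma rich in collagen and an outer layer of smooth muscle. It responds to the ovary's estrogen and progesterone through their nuclear receptors and holds a resident population of natural killer cells. Interferon gamma, made mainly by natural killer and T cells, acts through its receptor and the JAK kinases to switch on antigen presentation and defence genes, many of them through a short promoter element called the ISRE.

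Levels are given as CPM, meaning reads of a gene relative to the TMM-adjusted size of its library, always in the order of replicates 1, 2 and 3, and each contrast is the log2 level in ovary minus that in uterus with its standard error, so that 1 unit is a doubling and a positive value means more in the ovary. A gene is called higher in an organ where edgeR's quasi-likelihood test with Benjamini-Hochberg adjustment gives an adjusted p under 0.05. Total counts ranged from 37575070 to 45307761 for uterus libraries and from 38847881 to 39265365 for ovary libraries, and mitochondrial transcripts took 3.10% to 4.53% of them. The libraries of 1 organ correlated at 0.951 to 0.984 over log2 levels and those of different organs at 0.844 to 0.867. Both organs were counted in tables of their own with the same options, so the organ and the counting run cannot be told apart. In such bulk samples fewer cells of a type and less RNA per cell cannot be told apart either.

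Tissue markers were set against the organ labels first. All 10 ovary markers were called higher in the ovary libraries, against 16.9% of the 23339 genes tested, and their summed level was 6688 to 7648 CPM against 63.3 to 112 CPM in the uterus. Of 10 uterus markers 8 were called higher in the uterus, against 15.2% of all genes tested. Ltf, an estrogen-responsive secretory protein, was at 90.1, 195 and 222 CPM in the ovary and 543, 90.8 and 529 CPM in the uterus (log2 -1.20 ± 0.71, adjusted p = 0.254). Oxtr, the oxytocin receptor, was at 78.9, 206 and 59.5 CPM in the ovary and 126, 10.1 and 136 CPM in the uterus (log2 0.34 ± 0.97, adjusted p = 0.827). For both genes uterus replicate 2 lay far below the other uterus libraries and the organs overlapped.

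Transcripts known from other tissues were present on both sides, and their origin was not tested. The ovary libraries held transcripts of oviduct and ciliated cells: of 14 listed genes 13 were tested and all 13 were called higher in the ovary, with a summed level of 1586 to 2149 CPM against 92.1 to 201 CPM. Ovgp1, the oviduct's main secreted glycoprotein, was at 1260.3, 1773 and 1848 CPM in the ovary and 54.4, 158 and 60.1 CPM in the uterus (log2 4.16 ± 0.49, adjusted p = 0.00137). Sntn, a protein of motile cilia, was at 10.2, 9.69 and 9.77 CPM in the ovary and at 0 counts in each uterus library, at least 394-fold higher. Adipocyte genes were called higher in the ovary for 10 of 12, but for 4 of 12 with uterus replicate 2 as the only uterus library or with all 18 libraries in 1 fit. Plin4, a lipid droplet protein, was at 501, 331 and 227 CPM in the ovary and 21.1, 26.8 and 21.4 CPM in the uterus (log2 3.93 ± 0.31, adjusted p = 1.86e-04). The part of these tissues in the ovary results was not tested.

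Uterus libraries 1 and 3 held keratins and junction proteins of a stratified squamous epithelium, which uterus library 2 almost lacked. A list of 25 such genes, chosen after their values were seen and therefore not tested as a list, took 1.43% of counts in uterus 1, 0.0230% in uterus 2 and 1.31% in uterus 3, against 0.00361% to 0.00434% in the ovaries. In the 6 uteri of the other genotypes the list took 0.242% to 1.03%. Krt5, a keratin of the basal layer, was at 0, 0.0979 and 0.0967 CPM in the ovary and 1841, 78.8 and 1631 CPM in the uterus. Krt6a was at 2884, 3.48 and 2777 CPM in the uterus and at 0 in all 3 ovaries, and was not called (adjusted p = 0.0592). Krt6b, Sprr1b and Sprr3 were also at 0 in all 3 ovaries. Uterus 1 and 3 correlated with each other at 0.984 and with uterus 2 at 0.951 and 0.952, and whether they share an animal is not given by the labels. The part of this epithelium in the uterus results was not tested, and the counts below are given with uterus 2 left out, or kept as the only uterus library, where that matters.

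**Figure D1:**
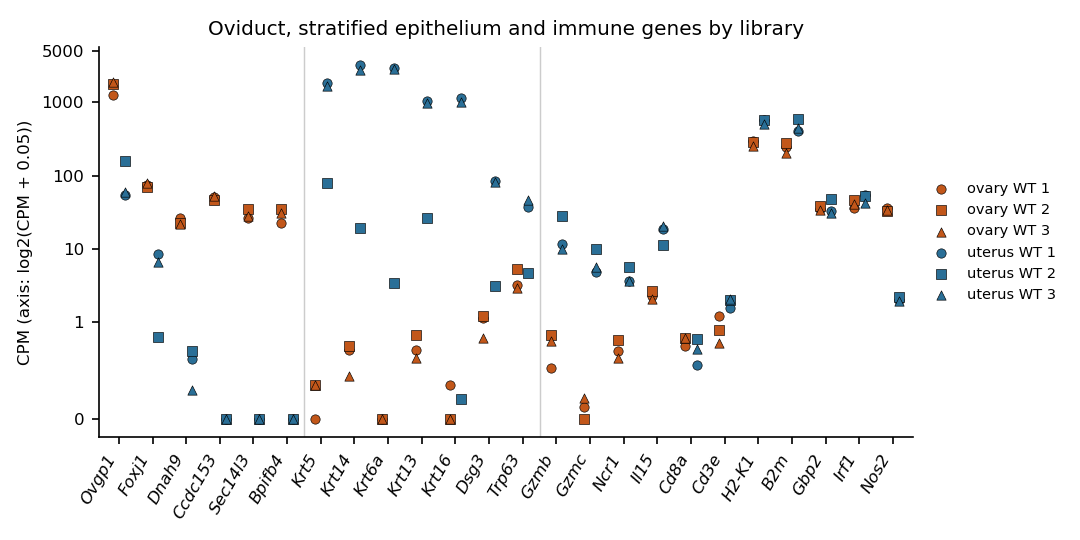
Level of 24 genes in each of the 6 WT libraries, in CPM on a log2(CPM + 0.05) axis; ovary libraries are orange and uterus libraries blue, and the marker shape gives the replicate. From left to right the blocks show oviduct and ciliated cell genes, stratified epithelium genes and immune genes: uterus 2 (blue squares) sits far below uterus 1 and 3 for Krt5, Krt14 and Krt6a but not for Gzmb or H2-K1.

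Across the transcriptome the organs differed widely, and the large differences lay mostly on the ovary side. Of 23339 genes tested 7502 (32.1%) were called, 3953 (16.9%) higher in the ovary and 3549 (15.2%) higher in the uterus. The 16.9% and 15.2% are the shares to set beside every list count below. At 16-fold or more the numbers were 880 and 250, and at 64-fold or more 508 and 89. The libraries of the 2 organs did not overlap for 7445 of the called genes and for 11322 of all 23339 tested. Scaling by total counts alone shifted the median of all genes by 0.14 toward the ovary and raised the ovary's share of the calls from 52.7% to 65.6%. Leaving out uterus 2 raised the calls to 5631 and 5190, and with uterus 2 as the only uterus library they were 3361 and 3119.

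**Figure D2:**
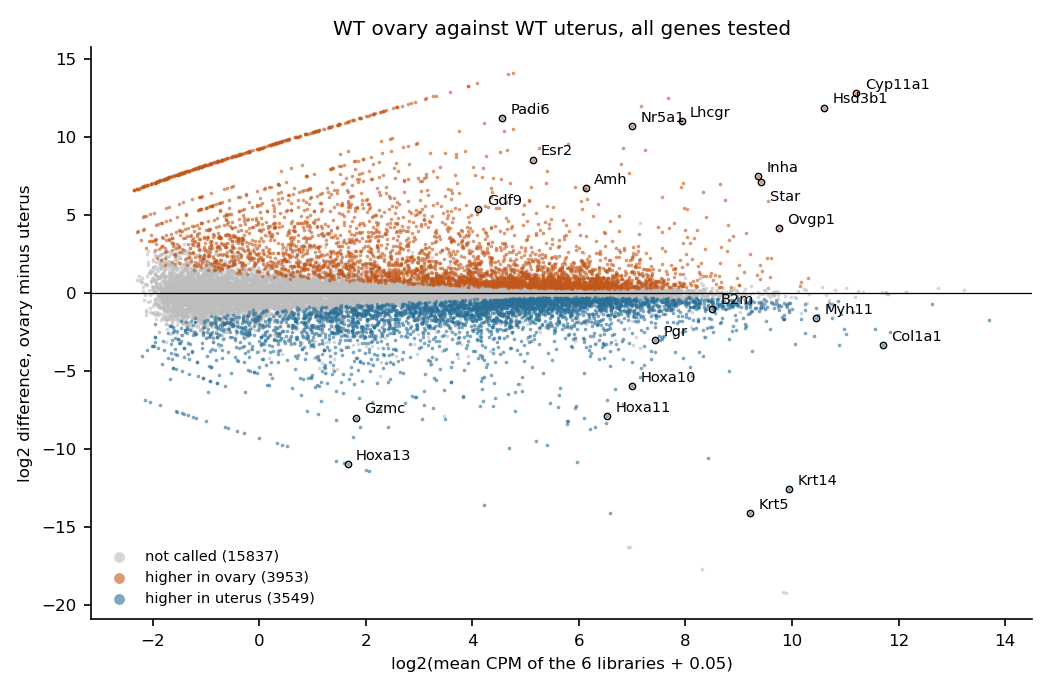
Each point is 1 of 23339 genes: the x axis is log2 of the mean CPM of the 6 libraries plus 0.05 and the y axis the log2 difference, ovary minus uterus. Called genes are coloured (3953 higher in ovary, 3549 higher in uterus); the straight edge of points at the upper left is made of genes at or near 0 in the uterus, whose fitted value depends on a small added count. Krt5 and Krt14 lie lowest among the labelled genes.

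Genes of steroid synthesis were far higher in the ovary. Of 19 tested genes of the list 15 were called higher in the ovary and none higher in the uterus, with a median log2 difference of 4.90 against 0.00 for all genes tested. Cyp11a1, which cleaves the cholesterol side chain in the first step to all steroids, was at 4966, 5019 and 4210.4 CPM in the ovary and 0.871, 0.412 and 0.748 CPM in the uterus. No uterus library came near the lowest ovary (log2 12.78 ± 0.34, adjusted p = 5.35e-06). Hsd3b1, which makes progesterone from pregnenolone, was at 2986, 3646 and 2654 CPM in the ovary and 1.41, 0.229 and 0.873 CPM in the uterus (log2 11.88 ± 0.70, adjusted p = 9.69e-05). Per kilobase of transcript the ovary level of Cyp11a1 was 2232 ± 213 CPM per kb (mean ± SD, n = 3), that of Hsd3b1 1669 ± 272 and that of Cyp19a1, the aromatase described below, 20.3 ± 11.7. For scale, the mitochondrial gene mt-Co1, among the 5 highest of both organs on this measure, was at 6660.2 ± 612 CPM per kb in the ovary.

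The 3 ovaries differed among themselves in other genes of the pathway. Star, the carrier that brings cholesterol into the mitochondrion, was at 579.6, 3129 and 382 CPM in the ovary and 9.58, 9.26 and 11.3 CPM in the uterus (log2 7.08 ± 1.04, adjusted p = 0.00447). Cyp17a1, the theca enzyme that leads to androgens, was at 416, 71.3 and 371 CPM in the ovary and 0.112, 0.0458 and 0.0499 CPM in the uterus (log2 11.99 ± 1.09, adjusted p = 6.65e-04). Ovary 2 thus had the most Star and the least Cyp17a1. The Cyp17a1 call was lost with limma-voom. Akr1c18, which inactivates progesterone and marks regressing corpora lutea, was at 1076, 76.002 and 332 CPM, again with ovary 2 lowest, and was called at an adjusted p of 0.0237, a call lost in 8 of 17 alternatives. Cyp19a1, the granulosa aromatase that makes estrogen, was at 80.2, 23.1 and 46.1 CPM in the ovary and 0.0562, 0 and 0.199 CPM in the uterus (log2 9.16 ± 0.88, adjusted p = 7.72e-04). With uterus 2 as the only uterus library Star and Cyp17a1 were not called, and 10 of the 19 genes were called higher in the ovary and 1 higher in the uterus.

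Cholesterol supply was less clear-cut. Of 24 genes of cholesterol synthesis and uptake 13 were called higher in the ovary and none in the uterus, with a median of 1.46, but the count fell to 5 without ovary replicate 1, to 8 without ovary 2 or uterus 2 and to 7 without uterus 1 or 3. Scarb1, the receptor that takes cholesterol from HDL, was at 963, 1526 and 652 CPM in the ovary and 74.6, 74.2 and 68.4 CPM in the uterus (log2 3.85 ± 0.32, adjusted p = 2.09e-04). Ovary 2 was the highest of the 6 libraries.

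Receptors and regulators of the follicle followed the enzymes. Lhcgr, the LH receptor of theca and luteal cells, was at 477, 623 and 358 CPM in the ovary and 0.393, 0.160 and 0.150 CPM in the uterus (log2 11.04 ± 0.43, adjusted p = 1.63e-05). Fshr, the FSH receptor of granulosa cells, was at 22.6, 9.98 and 22.03 CPM in the ovary and 0, 0 and 0.0997 CPM in the uterus (log2 8.96 ± 0.79, adjusted p = 2.93e-04). Nr5a1, the steroidogenic factor 1 that drives many of the enzymes above, was at 261, 203 and 301 CPM in the ovary and 0.225, 0.183 and 0.0499 CPM in the uterus (log2 10.69 ± 0.38, adjusted p = 8.41e-06). All 3 were near 0 in every uterus library. Its relative Nr5a2 was at 333, 529 and 261 CPM in the ovary and 3.99, 5.54 and 6.51 CPM in the uterus (log2 6.13 ± 0.36, adjusted p = 6.12e-05). Foxl2, known for keeping granulosa identity, was present in both organs at 186, 210.5 and 183 CPM in the ovary and 101, 50.1 and 103 CPM in the uterus (log2 1.19 ± 0.27, adjusted p = 0.0142), a call lost without ovary replicate 1 or 2.

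Granulosa genes were called higher in the ovary for 16 of 18 listed, with a median of 3.44. Inha, the alpha subunit of the FSH-suppressing hormone inhibin, was at 1558, 990.0 and 1401 CPM in the ovary and 6.46, 8.85 and 6.53 CPM in the uterus (log2 7.50 ± 0.27, adjusted p = 6.71e-06). Amh, anti-Mullerian hormone of growing follicles, was at 119, 139 and 157 CPM in the ovary and 1.01, 2.06 and 0.873 CPM in the uterus (log2 6.70 ± 0.36, adjusted p = 5.04e-05). The theca and luteal list gave 9 of 15 higher in the ovary and 1 higher in the uterus, or 7 and 4 with uterus 2 as the only uterus library. That gene, Gli1, a transcription factor of hedgehog signalling, was at 24.7, 39.8 and 36.7 CPM in the ovary and 127, 219 and 126 CPM in the uterus (log2 -2.22 ± 0.28, adjusted p = 0.00145). Prlr, the prolactin receptor that maintains the corpus luteum in rodents, was at 469.9, 487 and 314 CPM in the ovary and 21.98, 8.46 and 25.9 CPM in the uterus (log2 4.50 ± 0.47, adjusted p = 8.95e-04). The ovulation list was mixed, with 3 of 13 higher in the ovary (1 without ovary 3, uterus 1 or uterus 3) and 4 higher in the uterus (2 with uterus 2 as the only uterus library). Has2, a hyaluronan synthase, was at 0.416, 0.196 and 0.580 CPM in the ovary and 21.8, 15.5 and 20.7 CPM in the uterus (log2 -5.59 ± 0.38, adjusted p = 6.92e-05).

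Oocyte transcripts were higher in the ovary for nearly every gene of their list. Of 28 tested oocyte genes 27 were called higher in the ovary; the median was 6.33, or 5.95 with the 4 tested members at 0 in the uterus placed at the bound that 3 counts over the group allow. Zp3, a zona pellucida protein, was at 20.5, 20.5 and 18.2 CPM in the ovary with 0 counts in all 3 uteri, at least 786-fold higher. Gdf9, the oocyte growth factor that acts on granulosa cells, was at 33.02, 36.3 and 31.8 CPM in the ovary and 0.731, 1.40 and 0.249 CPM in the uterus (log2 5.39 ± 0.52, adjusted p = 5.02e-04). Padi6, an enzyme of the oocyte cytoplasmic lattices, was at 47.8, 50.4 and 43.04 CPM in the ovary and 0, 0.0458 and 0 CPM in the uterus (adjusted p = 7.41e-06). With 5793 counts over the 3 ovaries and 2 over the 3 uteri the ratio was 2809 (exact 95% interval 777 to 23203). That interval takes the counts as independent, although both mates of a pair were counted, so it is too narrow even for counting error. Ddx4, the germ cell helicase, differed less, at 1.71, 3.38 and 1.89 CPM in the ovary and 0.646, 0.869 and 1.05 CPM in the uterus (log2 1.44 ± 0.39, adjusted p = 0.0266). That call was lost in 5 of 17 alternatives, among them without ovary 2, ovary 3 or uterus 1 and with all 18 libraries in 1 fit.

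**Figure D3:**
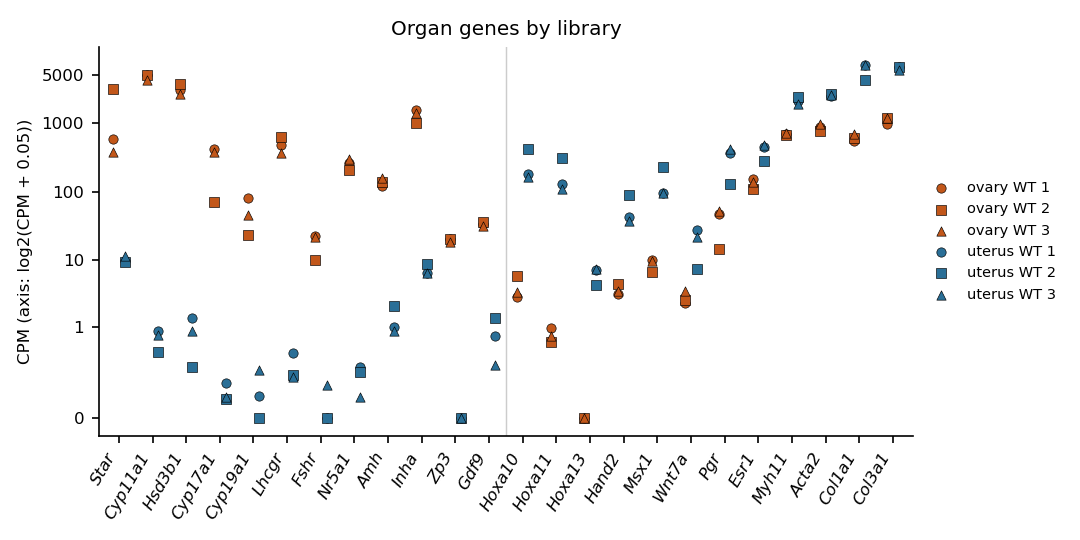
Level of 12 ovary and 12 uterus genes in each of the 6 WT libraries, in CPM on a log2(CPM + 0.05) axis; ovary libraries are orange, uterus libraries blue, and marker shape gives the replicate. The ovary genes on the left lie far lower in the uterus, with wide spread between ovaries for Star and Cyp17a1, while muscle and collagen genes on the right are high in both organs.

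Genes detected in 1 organ alone were mostly in the ovary libraries: 140 genes had at least 1 CPM in each ovary and no count in any uterus, and 10 had the reverse. The 140 include genes of motile cilia such as Ccdc153 and Sntn, and the same libraries held the oviduct transcripts described above. The part of the oviduct in this number was not tested. Ccdc153, a component of ciliary axonemes, was at 51.7, 46.7 and 53.2 CPM (at least 2011-fold higher), and Cst8, a cystatin, at 14.3, 129 and 18.4 CPM, with ovary 2 far above the others and a call lost in 6 of 17 alternatives. Prss35, a protease of the ovary that was not restricted to it, was at 324, 561 and 339 CPM in the ovary and 0.0562, 0.0915 and 0.0499 CPM in the uterus (log2 12.51 ± 0.40, adjusted p = 6.61e-06). On the uterus side the highest were Krt6a, Gm49428 and Gm12897. Gm49428, an unnamed gene model at 967, 1.40 and 948 CPM, moved with Krt6a, and reads shared between near-identical genes were counted for each.

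The uterus carried the posterior Hox genes of the Mullerian duct. Hoxa10 and Hoxa11, which set uterine identity and are needed for implantation, were both higher in the uterus. Hoxa10 was at 2.86, 5.90 and 3.43 CPM in the ovary and 180.1, 412 and 163 CPM in the uterus (log2 -5.95 ± 0.54, adjusted p = 6.16e-04). Hoxa11 was at 0.978, 0.587 and 0.725 CPM in the ovary and 130.0, 312 and 108 CPM in the uterus (log2 -7.90 ± 0.59, adjusted p = 2.74e-04). Uterus 2 had the most of both. Hoxa13, which marks the vaginal and cervical end of the duct, was at 7.17, 4.26 and 7.28 CPM with 0 counts in all 3 ovaries, at least 252-fold higher. All 3 uteri held Hoxa13 transcripts, uterus 2 the fewest. Counting used no strand, so reads of Hoxa11 and of its antisense gene Hoxa11os, at 0.538, 0.196 and 0.387 CPM in the ovary and 66.9, 207 and 58.9 CPM in the uterus, cannot be told apart, and the same holds for other overlapping Hox transcripts.

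The 39 Hox genes split by cluster and by position. Of 32 tested 14 were called higher in the uterus and 11 higher in the ovary. In the Hoxa cluster the paralogues Hoxa4 to Hoxa7 were higher in the ovary, at log2 1.48 (Hoxa7) to 2.50 (Hoxa4), whereas Hoxa9, Hoxa10, Hoxa11 and Hoxa13 were higher in the uterus. In the Hoxb cluster 6 genes, Hoxb2, Hoxb3 and Hoxb5 to Hoxb8, were higher in the uterus at log2 -2.32 (Hoxb8) to -0.68 (Hoxb3). In the Hoxc cluster Hoxc4, Hoxc5, Hoxc6, Hoxc8, Hoxc9 and Hoxc10 were all higher in the ovary, most of all Hoxc8 at 21.9, 23.5 and 25.03 CPM in the ovary and 0.871, 1.37 and 0.748 CPM in the uterus (log2 4.55 ± 0.26, adjusted p = 4.39e-05), and Hoxc11 was higher in the uterus. In the Hoxd cluster Hoxd3, Hoxd4 and Hoxd8 were not called and Hoxd9, Hoxd10 and Hoxd11 were higher in the uterus, at -1.07, -3.14 and -4.29. The ovary-side calls were the less stable ones, 5 with uterus 2 as the only uterus library and 5 or 6 without ovary 2, ovary 3, uterus 1 or uterus 3.

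**Figure D4:**
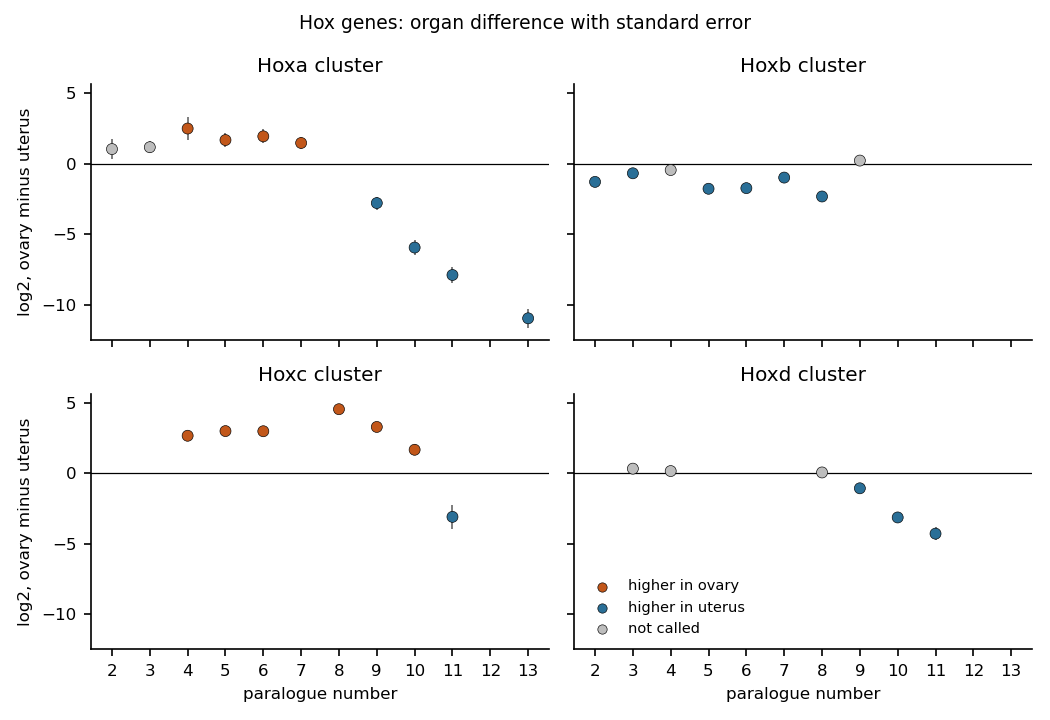
Log2 difference, ovary minus uterus, with its standard error for 31 of the 32 tested Hox genes, drawn by cluster against paralogue number; orange is called higher in ovary, blue higher in uterus and grey not called. Hoxa and Hoxd genes numbered 9 and above lie below 0, while Hoxc4 to Hoxc10 lie above it.

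Other genes of the duct and of uterine receptivity were mostly higher in the uterus. Of 14 tested Mullerian duct genes 10 were called higher in the uterus and 1, Wnt4, higher in the ovary. Of 22 genes of receptivity and steroid response 12 were called higher in the uterus and 4 higher in the ovary (7 without uterus 2). Hand2, a stromal target of progesterone, was at 3.13, 4.40 and 3.53 CPM in the ovary and 42.9, 88.3 and 36.7 CPM in the uterus (log2 -3.92 ± 0.38, adjusted p = 5.22e-04). Msx1, a homeobox gene of the receptive uterus, was at 9.88, 6.56 and 9.60 CPM in the ovary and 95.2, 231 and 93.6 CPM in the uterus (log2 -4.01 ± 0.44, adjusted p = 0.00114). For both genes uterus 2 held the most. Wnt7a, a ligand of the luminal epithelium, was at 2.30, 2.59 and 3.48 CPM in the ovary and 27.4, 7.30 and 21.5 CPM in the uterus (log2 -2.74 ± 0.49, adjusted p = 0.00559), with uterus 2 lowest.

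The steroid receptors divided between the organs. Pgr, the progesterone receptor, was at 47.5, 14.4 and 51.9 CPM in the ovary and 365, 129 and 423 CPM in the uterus (log2 -3.01 ± 0.66, adjusted p = 0.0171). Its call was lost with uterus 2 as the only uterus library, with no filter or without ovary replicate 1. Esr1, estrogen receptor alpha, was at 153, 107 and 137 CPM in the ovary and 450.3, 281 and 476 CPM in the uterus (log2 -1.60 ± 0.23, adjusted p = 0.00183). Esr2, estrogen receptor beta of granulosa cells, was at 75.01, 67.5 and 66.8 CPM in the ovary and 0.169, 0.229 and 0.150 CPM in the uterus (log2 8.54 ± 0.18, adjusted p = 2.76e-06). Over the nuclear receptor family 19 of 47 were called higher in the ovary and 7 higher in the uterus. Nr1h4, the bile acid receptor FXR, lay on the ovary side (log2 7.37 ± 0.46) and Rorb on the uterus side at 0.245, 0.196 and 0.387 CPM in the ovary and 21.5, 39.97 and 22.8 CPM in the uterus (log2 -6.65 ± 0.39, adjusted p = 4.89e-05). The uterus count fell to 3 without ovary replicate 1 and to 4 without ovary 3 or uterus 1.

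Muscle and matrix transcripts were abundant in the uterus. Of 24 smooth muscle genes 19 were called higher in the uterus and none higher in the ovary, with a median of -1.50. Myh11, the smooth muscle myosin heavy chain, was at 694, 671 and 721 CPM in the ovary and 2066, 2366 and 1896 CPM in the uterus (log2 -1.60 ± 0.12, adjusted p = 1.18e-04). Acta2, smooth muscle actin, was at 871, 772 and 956 CPM in the ovary and 2499, 2675 and 2567 CPM in the uterus (log2 -1.57 ± 0.12, adjusted p = 1.20e-04). Both were also present in every ovary, below the lowest uterus. Pcp4, a calmodulin-binding peptide, differed most in the list, at 6.85, 11.5 and 11.8 CPM in the ovary and 264, 322 and 244 CPM in the uterus (log2 -4.78 ± 0.25, adjusted p = 3.64e-05).

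Collagen and matrix genes were higher in the uterus for 22 of 24, with a median of -1.82, and the count was again 22 with uterus 2 alone or left out. Col1a1, a chain of type I collagen, was at 536, 606 and 689 CPM in the ovary and 7069, 4167 and 7062 CPM in the uterus (log2 -3.32 ± 0.24, adjusted p = 9.51e-05). Col3a1, type III collagen, was at 973, 1175 and 1170.2 CPM in the ovary and 6444, 6468 and 5859 CPM in the uterus (log2 -2.50 ± 0.13, adjusted p = 3.13e-05). Uterus 2 was below its replicates for Col1a1 but not for Col3a1. Acta1, known as the skeletal muscle actin, was also a uterus transcript, at 0.636, 0.489 and 1.35 CPM in the ovary and 104, 146 and 119 CPM in the uterus (log2 -7.21 ± 0.39, adjusted p = 5.24e-05). Of the 12 skeletal muscle genes 8 were tested, of which 4 were called higher in the uterus and 1, Mb, higher in the ovary.

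Epithelial genes were called higher in the uterus for 12 of 16 and gland or secretory genes for 7 of 13, or 4 of 13 with limma-voom. Without uterus 2 these counts were 15 of 16 and 10 of 14. Cdh1, E-cadherin of all epithelia, was at 70.9, 57.3 and 70.9 CPM in the ovary and 219, 146 and 223 CPM in the uterus (log2 -1.56 ± 0.19, adjusted p = 7.82e-04). Foxa2, the regulator of uterine glands, was at 5.63, 3.67 and 4.18 CPM in the ovary and 7.56, 17.5 and 9.08 CPM in the uterus (log2 -1.34 ± 0.35, adjusted p = 0.0232), a call lost without ovary replicate 2 or 3. Cxcl15, a gland chemokine in the mouse uterus, was at 0.391, 0.0979 and 0.822 CPM in the ovary and 8.15, 40.9 and 7.53 CPM in the uterus (log2 -5.42 ± 1.05, adjusted p = 0.0110). That call was lost without ovary 1, with limma-voom and with no filter. Sprr2f, an estrogen-induced protein of the uterine epithelium, was at 0.342, 1.03 and 0.290 CPM in the ovary and 262, 13.3 and 272 CPM in the uterus (log2 -8.36 ± 1.47, adjusted p = 0.00911). The call was lost with limma-voom and with the replicate block, and its value is uncertain because reads shared with its close copies were counted for each. The uteri were not alike here: uterus 2 had the most Foxa2 and Cxcl15 and the least Sprr2f. Clu, clusterin, was the list's gene on the ovary side, at 853, 735 and 813 CPM in the ovary and 271, 128 and 293 CPM in the uterus (log2 1.79 ± 0.30, adjusted p = 0.00439).

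Signalling ligands were divided. Wnt ligands gave 4 of 13 on each side, and TGF-beta family ligands 10 of 26 higher in the ovary and 9 higher in the uterus. Wnt10b was at 279, 169 and 213 CPM in the ovary and 0.675, 0.961 and 0.499 CPM in the uterus (log2 8.26 ± 0.33, adjusted p = 1.36e-05). Wnt4, needed for ovarian and uterine development alike, was at 122, 168 and 119 CPM in the ovary and 33.8, 6.61 and 29.8 CPM in the uterus (log2 2.54 ± 0.60, adjusted p = 0.0221). That call was lost without any 1 of the ovaries, with no filter and with the replicate block. Wnt5a was a uterus ligand at 109.6, 117 and 105 CPM in the ovary and 331, 174 and 338 CPM in the uterus (log2 -1.34 ± 0.24, adjusted p = 0.00569). Inhba, the subunit shared by activin A and inhibin A, was at 672, 225 and 532 CPM in the ovary and 4.50, 3.11 and 5.04 CPM in the uterus (log2 6.82 ± 0.52, adjusted p = 2.45e-04). Gdf7, a bone morphogenetic protein, was at 0.293, 0.636 and 0.774 CPM in the ovary and 32.9, 83.1 and 34.5 CPM in the uterus (log2 -6.46 ± 0.57, adjusted p = 4.15e-04), with uterus 2 highest. Without uterus 2 the uterus count of Wnt ligands was 7 of 14 and that of TGF-beta family ligands 13 of 28.

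**Figure D5:**
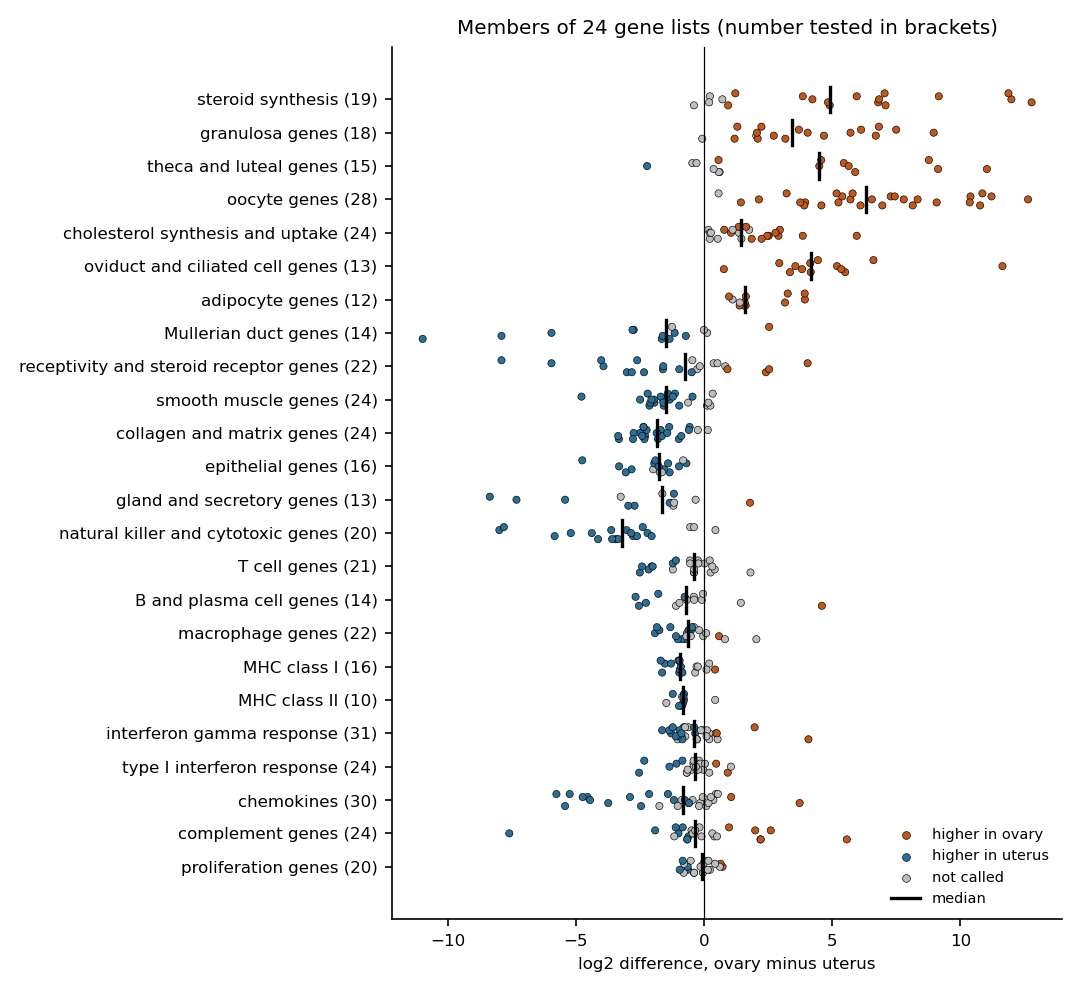
Log2 difference, ovary minus uterus, of every tested member of 24 gene lists, with the number tested in brackets; orange is called higher in ovary, blue higher in uterus, grey not called, and the black bar is the list's median. Ovary lists lie to the right and organ-structure lists of the uterus to the left; among immune lists the natural killer genes lie farthest left, with a median of -3.18.

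Of the immune lists, natural killer and cytotoxic genes had the median farthest from 0. Of 20 tested 17 were called higher in the uterus and none higher in the ovary, with a median of -3.18. The uterus count was 17 without uterus 2 and 18 with uterus 2 as the only uterus library. Gzmb encodes granzyme B, a protease released to kill target cells, and was at 0.196, 0.636 and 0.532 CPM in the ovary and 12.03, 28.3 and 10.1 CPM in the uterus (log2 -5.20 ± 0.60, adjusted p = 8.76e-04). Gzmc, granzyme C, was at 0.0245, 0 and 0.0484 CPM in the ovary and 4.92, 10.1 and 5.83 CPM in the uterus (adjusted p = 1.41e-04). From 849 and 3 counts the ratio was 292 (exact 95% interval 99.5 to 1418, too narrow even for counting error because both mates were counted). Ncr1, the natural killer receptor NKp46, was at 0.367, 0.538 and 0.290 CPM in the ovary and 3.68, 5.74 and 3.67 CPM in the uterus (log2 -3.44 ± 0.38, adjusted p = 5.27e-04). Uterus 2 had the most of all 3, and no ovary library reached the lowest uterus library. Such a gap between the organs held for 7445 of all 7502 called genes. Il15, the cytokine that maintains these cells, was at 2.32, 2.74 and 2.08 CPM in the ovary and 19.03, 11.6 and 20.8 CPM in the uterus (log2 -2.85 ± 0.27, adjusted p = 2.85e-04), with uterus 2 lowest.

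The listed T cell genes summed to 68.4 to 69.2 CPM in the ovary and 125 to 212 CPM in the uterus. Of 21 tested 7 were called higher in the uterus, Trbc1 and Trbc2 among them, and none higher in the ovary. Cd8a, Cd4 and Cd3e, given next, were not called. The coreceptor gene Cd8a of cytotoxic T cells was at 0.440, 0.587 and 0.580 CPM in the ovary and 0.225, 0.572 and 0.399 CPM in the uterus (log2 0.42 ± 0.50, adjusted p = 0.569). The helper coreceptor Cd4 was at 1.91, 2.54 and 2.27 CPM in the ovary and 2.73, 1.12 and 1.80 CPM in the uterus (log2 0.26 ± 0.37, adjusted p = 0.645). Cd3e, a chain of the CD3 signalling unit of T cells, was at 1.20, 0.759 and 0.484 CPM in the ovary and 1.55, 2.04 and 2.09 CPM in the uterus (log2 -1.22 ± 0.41, adjusted p = 0.0557). For Cd8a and Cd4 the organs overlapped. Of 14 B and plasma cell genes 5 were called higher in the uterus and 1 higher in the ovary. Igha, the heavy chain of IgA, was at 38.3, 77.9 and 63.99 CPM in the ovary and 363, 417 and 368 CPM in the uterus (log2 -2.67 ± 0.26, adjusted p = 3.59e-04). Jchain, which joins IgA into dimers, was at 12.4, 21.5 and 14.7 CPM in the ovary and 72.8, 88.1 and 73.3 CPM in the uterus (log2 -2.27 ± 0.21, adjusted p = 2.77e-04). Pigr, the receptor that carries IgA across epithelia, was at 2.20, 2.20 and 7.16 CPM in the ovary and 173, 56.5 and 167 CPM in the uterus (log2 -5.10 ± 0.73, adjusted p = 0.00368).

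Of 22 macrophage genes 12 were called higher in the uterus and 1, Cd68, higher in the ovary. The uterus count fell to 7 without ovary replicate 1 or 3. The Cd68 call was lost in 6 of 17 alternatives, among them without ovary 2 or 3 or uterus 1 or 3. Adgre1, which encodes F4/80, was at 17.5, 23.7 and 18.5 CPM in the ovary and 31.2, 37.5 and 30.2 CPM in the uterus (log2 -0.73 ± 0.16, adjusted p = 0.0106), a call lost with all 18 libraries in 1 fit. Lyz2, lysozyme of macrophages and neutrophils, did not differ detectably, at 174, 233 and 216 CPM in the ovary and 191, 269 and 177 CPM in the uterus (log2 -0.03 ± 0.19, adjusted p = 0.917). Ccr2, the receptor of recruited monocytes, was at 12.8, 14.7 and 10.2 CPM in the ovary and 42.8, 51.2 and 40.9 CPM in the uterus (log2 -1.84 ± 0.17, adjusted p = 2.50e-04). Of 13 eosinophil and mast cell genes 5 were called higher in the uterus. Ccr3, the eotaxin receptor, was at 0.0978, 0.0489 and 0.0484 CPM in the ovary and 6.41, 12.2 and 6.88 CPM in the uterus (log2 -6.96 ± 0.47, adjusted p = 6.75e-05). Its ligand Ccl11 was at 1.42, 1.25 and 2.08 CPM in the ovary and 50.9, 9.38 and 50.7 CPM in the uterus (log2 -4.54 ± 0.72, adjusted p = 0.00529), with uterus 2 lowest. The Ccl11 call was lost with limma-voom. Of 30 chemokines tested 15 were called higher in the uterus and 2, Cxcl1 and Ccl25, higher in the ovary; the latter number was 1 without any 1 library other than uterus 2, and 4 without uterus 2. Ptprc, the pan-leukocyte antigen CD45, was at 18.5, 21.2 and 21.3 CPM in the ovary and 50.9, 61.9 and 53.5 CPM in the uterus (log2 -1.45 ± 0.12, adjusted p = 1.57e-04). Dendritic cell genes gave 4 of 11 higher in the uterus (2 without ovary 1 or 3) and 1 higher in the ovary. Neutrophil genes gave 4 of 11 higher in the uterus and 2 higher in the ovary, or 7 and 3 of 14 tested without uterus 2. The uterus count was 2 without ovary 1, and the ovary count 1 without ovary 2, ovary 3 or uterus 3. Mucosal defence genes were called higher in the uterus for 9 of 19, for 15 of 21 tested without uterus 2 and for 4 without ovary 1, without uterus 3 or with uterus 2 as the only uterus library.

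Antigen presentation genes were moderately higher in the uterus. Of 16 MHC class I pathway genes 10 were called higher there and 1, H2-T23, higher in the ovary. The H2-T23 call was lost in 7 of 17 alternatives, among them without any 1 library other than uterus 2. H2-K1, which presents peptides to cytotoxic T cells, was at 297, 289 and 256 CPM in the ovary and 564, 579 and 499.5 CPM in the uterus (log2 -0.96 ± 0.11, adjusted p = 7.48e-04). B2m, the light chain shared by class I molecules, was at 243, 278 and 201 CPM in the ovary and 407, 594 and 441 CPM in the uterus (log2 -0.999 ± 0.18, adjusted p = 0.00517). Nlrc5, the transactivator of class I genes, was at 10.4, 10.4 and 9.96 CPM in the ovary and 29.1, 32.1 and 34.3 CPM in the uterus (log2 -1.63 ± 0.12, adjusted p = 1.07e-04). These 3 did not overlap between organs, which held for 7445 of all 7502 called genes and 11322 of all 23339 tested. Of 10 class II pathway genes 7 were called higher in the uterus. H2-Aa, a class II alpha chain, was at 74.01, 119.6 and 94.1 CPM in the ovary and 151, 223 and 149.7 CPM in the uterus (log2 -0.86 ± 0.22, adjusted p = 0.0226), a call lost without ovary replicate 1 or 3. Ciita, the master regulator of class II, was at 5.14, 7.10 and 6.53 CPM in the ovary and 11.4, 18.3 and 14.01 CPM in the uterus (log2 -1.22 ± 0.23, adjusted p = 0.00583). That class II count was 1 without ovary replicate 1 or 3, 3 without uterus replicate 1, and 2 with total-count scaling. H2-Q genes are near-identical copies, whose reads were counted for each copy, so H2-Q6 and H2-Q7 are uncertain.

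Interferon gamma itself was near the limit of detection in both organs: Ifng was at 0.0978, 0 and 0.0967 CPM in the ovary and 0.112, 0.137 and 0 CPM in the uterus, too low to be tested. Of 14 tested genes of interferons and their receptors 3 were called on each side (ovary 1 without any 1 library other than ovary 3 or uterus 2, and 5 without uterus 2, and uterus 1 without ovary 1). Of all genes tested 16.9% were called higher in the ovary and 15.2% higher in the uterus. Ifngr1, the ligand-binding receptor chain, was at 45.9, 46.96 and 44.1 CPM in the ovary and 55.1, 62.4 and 59.1 CPM in the uterus (log2 -0.37 ± 0.09, adjusted p = 0.0200). Ifngr2, its signalling partner, was at 58.9, 54.9 and 51.6 CPM in the ovary and 36.96, 46.7 and 40.2 CPM in the uterus (log2 0.42 ± 0.12, adjusted p = 0.0303). Both calls were lost in some alternatives, 4 and 7 of 17. Jak2, the kinase on the receptor, was at 67.7, 67.9 and 68.2 CPM in the ovary and 138, 221 and 152 CPM in the uterus (log2 -1.33 ± 0.18, adjusted p = 0.00137). Socs1, the feedback inhibitor, was at 6.51, 5.995 and 9.62 CPM in the ovary and 22.9, 12.1 and 21.8 CPM in the uterus (log2 -1.36 ± 0.30, adjusted p = 0.0112), a call lost with uterus 2 as the only uterus library or without ovary replicate 1.

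The response genes did not move as a block. Of 31 tested interferon gamma response genes 13 were called higher in the uterus and 3 higher in the ovary, with a median of -0.39. The uterus count was 8 without ovary replicate 1, 14 without uterus 2 and 15 with uterus 2 alone, and the ovary count was 7 and 1 in the last 2 cases. Gbp2, a guanylate-binding protein, was at 35.7, 39.3 and 34.6 CPM in the ovary and 33.6, 48.1 and 31.4 CPM in the uterus (log2 -0.05 ± 0.17, adjusted p = 0.868). Irf1, an early interferon-induced factor, was at 36.5, 46.8 and 42.005 CPM in the ovary and 54.9, 53.9 and 42.5 CPM in the uterus (log2 -0.27 ± 0.14, adjusted p = 0.184). Cxcl9 and Cxcl10, the T cell attracting chemokines, were at 0.734, 1.03 and 0.532 CPM in the ovary and 1.69, 1.33 and 1.67 CPM in the uterus and at 1.91, 2.72 and 1.45 CPM in the ovary and 0.984, 2.29 and 2.09 CPM in the uterus respectively, and neither was called. Psmb8, an immunoproteasome subunit, was at 18.001, 17.7 and 22.3 CPM in the ovary and 46.96, 52.98 and 41.3 CPM in the uterus (log2 -1.29 ± 0.14, adjusted p = 5.97e-04). Nos2, inducible nitric oxide synthase, was instead an ovary transcript at 36.5, 33.1 and 34.9 CPM in the ovary and 2.02, 2.20 and 1.97 CPM in the uterus (log2 4.07 ± 0.14, adjusted p = 6.71e-06). Gbp8 was also higher in the ovary, at 39.3, 15.4 and 30.8 CPM in the ovary and 7.25, 7.96 and 6.53 CPM in the uterus (log2 1.97 ± 0.33, adjusted p = 0.00389), a call lost in 1 of 17 alternatives.

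For type I interferon response genes 5 of 24 were called higher in the uterus, against 15.2% of all genes tested, and 2 higher in the ovary, against 16.9%. The uterus count was 3 without ovary 1. Mx1, an antiviral GTPase, was at 1.32, 2.03 and 1.69 CPM in the ovary and 12.5, 3.98 and 12.7 CPM in the uterus (log2 -2.53 ± 0.46, adjusted p = 0.00540). Oas3, which makes the activator of RNase L, was at 0.685, 0.930 and 1.06 CPM in the ovary and 4.97, 3.41 and 5.14 CPM in the uterus (log2 -2.33 ± 0.31, adjusted p = 0.00137). Isg15, a ubiquitin-like modifier, did not pass, at 6.36, 6.31 and 4.11 CPM in the ovary and 8.09, 13.4 and 5.11 CPM in the uterus (log2 -0.67 ± 0.37, adjusted p = 0.209). Ifne, the interferon epsilon of the reproductive tract, was under 2 CPM in all 6 libraries, at 1.08, 0.636 and 0.919 CPM in the ovary and 0.225, 0.320 and 0.524 CPM in the uterus (log2 1.29 ± 0.48, adjusted p = 0.0800). Bst2, the antiviral membrane protein tetherin, was at 154, 159.7 and 146 CPM in the ovary and 132, 95.01 and 104 CPM in the uterus (log2 0.47 ± 0.14, adjusted p = 0.0332). That call was lost without any 1 ovary, without uterus 3 and with all 18 libraries in 1 fit.

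The ISRE was searched as the letters GAAANNGAAA on both strands in the 250 bases before the start of RefSeq promoters (GRCm38.p6), a motif added after the data were seen. It was found in 978 of 32851 promoter windows (2.98%), in 2.54% of windows of genes higher in the ovary, 2.97% of genes higher in the uterus and 2.71% of genes not called. In the interferon gamma, type I interferon and MHC class I lists together, 46 genes matched the table and 21 of them held it, in 21 of 51 windows (41.2%). Of these 21 genes 6 were called higher in the uterus, 2 higher in the ovary and 13 were not called. The following 4 promoters are shown because they carry the element and their genes lie on different sides of the comparison. Capitals mark the element, and overlapping matches appear as 1 run. B2m and Bst2 are described above, and Igtp and Irgm1, named for their promoters, are interferon-induced GTPases with log2 differences of -0.80 ± 0.25 (adjusted p = 0.0444) and -0.34 ± 0.11 (adjusted p = 0.0419).
B2m: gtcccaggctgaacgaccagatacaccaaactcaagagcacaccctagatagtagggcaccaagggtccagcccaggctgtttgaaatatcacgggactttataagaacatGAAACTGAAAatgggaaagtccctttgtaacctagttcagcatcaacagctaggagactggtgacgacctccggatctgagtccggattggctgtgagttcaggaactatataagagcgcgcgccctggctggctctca
Irgm1: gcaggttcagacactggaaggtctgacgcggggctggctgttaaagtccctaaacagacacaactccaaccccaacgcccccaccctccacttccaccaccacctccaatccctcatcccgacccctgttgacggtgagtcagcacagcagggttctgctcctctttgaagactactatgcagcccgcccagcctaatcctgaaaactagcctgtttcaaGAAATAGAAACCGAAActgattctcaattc
Igtp: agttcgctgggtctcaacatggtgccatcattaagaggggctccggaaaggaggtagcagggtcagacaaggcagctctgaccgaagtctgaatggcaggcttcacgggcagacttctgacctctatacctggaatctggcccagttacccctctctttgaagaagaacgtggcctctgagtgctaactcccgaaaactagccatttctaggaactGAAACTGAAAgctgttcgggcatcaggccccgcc
Bst2: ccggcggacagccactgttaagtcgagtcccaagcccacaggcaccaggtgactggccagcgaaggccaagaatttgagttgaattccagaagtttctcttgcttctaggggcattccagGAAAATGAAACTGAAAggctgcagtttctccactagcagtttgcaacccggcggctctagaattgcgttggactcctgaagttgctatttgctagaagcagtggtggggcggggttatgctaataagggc
In the B2m window, chr2:122147437-122147686 on the plus strand, the match starts 139 bases before the start of transcription. In those of Irgm1, chr11:48871421-48871670 on the minus strand, and Igtp, chr11:58199306-58199555 on the plus strand, it starts 24 (the match nearest the start) and 34 bases before it. The Bst2 window, chr8:71537473-71537722 on the minus strand, holds 2 overlapping matches, the nearer at 124 bases. A match describes letters and is not shown to be a site in use.

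A second pair of motifs was searched in the same windows. The extended half-site of the NR5A factors (CAAGGTCA or CAAGGCCA, both strands) was in 3.68% of windows of genes higher in the ovary, 2.76% of genes higher in the uterus, 2.50% of genes not called and 3.28% of all windows, and in none of the 15 windows of the 12 steroid synthesis genes that the table holds, which leaves out Star and Cyp17a1. It was in 4 of 21 windows of the smooth muscle list. The CArG box of smooth muscle genes was in 1.82% of windows of genes higher in the uterus, 1.38% of genes higher in the ovary and 1.47% of all, and in 1 of 21 windows of the smooth muscle list. That window belongs to Myl9, the myosin regulatory light chain (log2 -1.42 ± 0.14), and lies at chr2:156775214-156775463 on the plus strand; it is shown with the box in capitals as the only match among the 19 genes of the list that the table holds.
Myl9: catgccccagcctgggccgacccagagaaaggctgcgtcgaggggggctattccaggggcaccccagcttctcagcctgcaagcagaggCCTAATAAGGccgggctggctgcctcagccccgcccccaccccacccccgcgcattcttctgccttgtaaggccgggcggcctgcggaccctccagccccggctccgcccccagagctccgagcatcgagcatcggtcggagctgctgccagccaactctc
No match means only that these letters are not in the window.

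Complement genes had no common direction, with 6 of 24 called higher in the ovary and 7 higher in the uterus (4 without ovary 3). The list counts of this paragraph stand beside 16.9% of all genes tested called higher in the ovary and 15.2% higher in the uterus. Cfb, factor B of the alternative pathway, was at 15.4, 16.03 and 14.3 CPM in the ovary and 72.5, 32.6 and 66.6 CPM in the uterus (log2 -1.91 ± 0.29, adjusted p = 0.00294). C3, the central component, did not differ detectably, at 476, 349.8 and 360.0 CPM in the ovary and 475, 324 and 471 CPM in the uterus (log2 -0.10 ± 0.19, adjusted p = 0.735). Proliferation genes gave 2 of 20 higher in the ovary and 4 higher in the uterus, and this split turned to 9 and 1 with uterus 2 as the only uterus library and to 3 and 9 without it. Mki67, present in all cycling cells, was at 59.996, 51.9 and 56.5 CPM in the ovary and 78.9, 57.4 and 85.05 CPM in the uterus (log2 -0.39 ± 0.16, adjusted p = 0.0923). Among genes of other tissue components, endothelial genes gave 2 of 16 higher in the ovary and 5 higher in the uterus (1 and 10 with uterus 2 as the only uterus library, 0 and 3 without ovary 1), ovarian surface and mesothelial genes 4 of 12 and 0 (6 and 3 without uterus 2), mitochondrial genome genes 0 of 13 and 1, and red cell genes 0 of 5 and 0.

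The same comparison was made in the libraries of the other genotypes. In ARE+/- mice 7312 of 23793 genes (30.7%) were called, and in ARE-/- mice 1228 of 23507 (5.22%). Of the WT calls, 7298 were tested in ARE+/- mice, where 94.1% kept their sign, 4430 were called the same way and 17 the opposite way. In ARE-/- mice 7225 were tested, 88.9% kept their sign, 986 were called the same way and none the opposite way. Without uterus ARE-/- replicate 1 the ARE-/- calls numbered 2861, of which 2086 were WT calls in the same direction and 5 were WT calls in the opposite one. That library held ovary transcripts, with Inha at 118 CPM of its total counts, without TMM scaling, and the part of this in the ARE-/- values was not tested.

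Of a list of 88 genes of interest 65 were called in WT, against 32.1% of all genes tested. Of these 61 kept their sign in ARE+/- and 62 in ARE-/- mice, and 49 and 16 were called the same way. Cyp11a1 had a log2 difference of 10.96 ± 1.07 in ARE+/- and 7.56 ± 2.10 in ARE-/- mice (adjusted p = 7.18e-04 and 0.0883). Hoxa11 was at -6.32 ± 0.40 and -5.13 ± 0.76 (adjusted p = 1.82e-04 and 0.0149), called in both. Gzmb was at -3.28 ± 0.62 and -2.02 ± 0.46 (adjusted p = 0.00880 and 0.0515), and Col1a1, at -3.32 in WT, was at -1.57 ± 0.45 and -0.65 ± 0.47 (adjusted p = 0.0396 and 0.516). Cyp11a1, Gzmb and Col1a1 were thus called in ARE+/- but not in ARE-/- mice, whose fit includes uterus ARE-/- replicate 1; the difference between ARE+/- and ARE-/- mice was not tested. Actg2, a muscle actin at -1.93 in WT, was at -0.06 in ARE+/- and -1.85 in ARE-/- mice, called in neither. The difference between the ARE-/- and the WT contrast was itself tested over 26682 genes, of which 45 (0.169%) passed. None of the 88 was among them. Outside the 88, Nr1h4 (-5.66 ± 0.88, adjusted p = 0.0214) and Ccr3 (5.33 ± 0.98, adjusted p = 0.0447), both named above, did pass. This fit also includes uterus ARE-/- replicate 1, and the part of that library in the result was not tested. Cyp11a1 shifted by -5.21 ± 1.90 and Nr5a1 by -5.53 ± 1.83 without passing. Not passing therefore does not show that a gene's organ difference is the same in both genotypes. In edgeR's test 29 of the 88 had an unadjusted p under 0.05, but the share of all genes under that value was not taken. The 29 therefore have no background to be read against.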

How the data were processed

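Total RNA of whole ovary and uterus was sequenced as Illumina paired-end libraries, per the labels' protocols. The deposited values are raw read counts per gene, made by the authors with featureCounts 2.0.4 on the GENCODE M32 annotation, per the file headers, after alignment with STAR to mm10, per the submitters' processing notes. M32 belongs to a later build than mm10, and the sources do not settle the difference. Per the file headers each mate was counted, as were reads with several alignments and reads over several genes, and no strand option was set, so counts overstate fragments and close copies share reads. Aligner version and trimming are not given in the sources used here.

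The ovary and uterus tables were joined on gene ID. Symbols came from GENCODE M21, which matched 52029 of 57010 IDs (91.3%), and 2 of 741 listed genes had no match. The main test was edgeR 4.0.16 (robust quasi-likelihood F-test, filterByExpr, TMM scaling, Benjamini-Hochberg adjustment over all genes tested, 3 against 3 libraries, contrast ovary minus uterus). The standard error is the log2 difference divided by the root of F. The other genotypes were fitted in the same way, and the difference of contrasts in 1 fit of all 18 libraries. DESeq2 1.42.0 and limma 3.58.1 were run as alternatives, with R 4.3.3. A fold against an organ at 0 counts is a bound from 3 counts over the group. Because both mates of a pair were counted, 3 counts can be fewer than 3 fragments, so these bounds are not conservative. Total counts of 37575070 to 45307761 a library make 1 CPM many reads, and p-values measure only the spread between these libraries, since the labels do not tie libraries to individual animals.

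Named genes are the 88 of a list, the 10 with the largest difference in each direction among called genes of at least 10 CPM whose groups did not overlap, the 3 with the largest difference in each direction of every list (at least 1 CPM), the 5 highest per kb in each organ and the 3 highest organ-restricted genes. Members, lists and tests were chosen with earlier results of these data known. The stratified epithelium list, the fit with uterus 2 as the only uterus library, the ISRE and the genes named for their promoters (Igtp, Irgm1, Myl9) were chosen after seeing the values; Cd68, H2-T23, Gm49428 and Ccl25 are named as members of small counts. Promoters are RefSeq's, GRCm38.p6. The authors' deposited DESeq2 tables were not used, and some genes are not reported here.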

Additional observations from a re-analysis of the deposited data

How the results depend on the processing

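The number of genes called higher in ovary and higher in uterus (3953 and 3549) was 4002 and 3515 with RLE scaling, 3902 and 3581 with upper-quartile scaling, 5189 and 2725 with total counts only, 4549 and 4201 with DESeq2, 4069 and 3234 with limma-voom, 3555 and 3162 with all 18 libraries in 1 fit, 3814 and 3521 with counts halved, 3600 and 3249 with a filter of 1 CPM in 3 libraries, and 3849 and 3393 with no filter. Leaving out 1 library gave 2708 to 5631 genes higher in ovary and 2191 to 5190 higher in uterus; the uterus number was lowest without ovary 1 (2191) and without ovary 3 (2364). An added alternative with uterus 2 as the only uterus library, which is then assumed to vary like the ovaries, gave 3361 and 3119. The replicate number as a block gave 3790 and 3415. Same-numbered libraries correlated at 0.0326, 0.172 and 0.0713 in their deviations, and only number 2 matched best with its own. Low values cannot exclude a shared mouse, since organs of the same mouse need not deviate together. The numbers were not taken as pairs because the labels do not state pairs. In ARE+/- mice 7312 calls became 8762 with the replicate block and 5099 to 7546 with 1 library left out. In ARE-/- mice 1228 became 1694 with the block and 230 to 2861 with 1 library left out, highest without uterus ARE-/- 1. Uterus ARE+/- 3, ovary ARE+/- 4, uterus ARE-/- 1 and ovary ARE-/- 6 have no same-numbered library in the other organ. Under the block they add nothing to the organ contrast, so the block counts 8762 and 1694 rest on the same-numbered libraries alone. The 45 calls of the contrast difference were 43 with RLE scaling. Genes restricted to the ovary numbered 212 at 0.5 CPM and 39 at 5 CPM, and to the uterus 16 and 1. Of 219 named genes tested 190 were called, 119 of these in all 17 alternatives, and no named call reversed. Of 1394 list counts under an alternative 1224 stayed within 1.5 times. The causes of these shifts were not tested.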
